A study of Rattus norvegicus with 12 samples.

Results

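The quantity described here is the difference between the atria in their response to a volume overload: the change from sham to shunt in the left atrium minus the change from sham to shunt in the right atrium, measured for each probe set of a 1-colour Affymetrix expression array. All 12 of the 12 arrays of the series entered it, grouped by their titles by atrium (right or left) and operation (sham or shunt), with 3 arrays in each of 4 groups. The animals were male Sprague-Dawley rats of 225 to 275 g with no transgene or deletion named, and the atria came from animals 28 days after an aorto-caval shunt, a surgical connection of the abdominal aorta and the vena cava, or after a sham operation. Each array held RNA of a pool of 2 tissues, so that p-values measure the spread between pools and not between animals. Values are log2 RMA values, on which a difference of 1 is a 2-fold difference. A positive interaction means that the left atrium moved up more, or down less, than the right.

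An aorto-caval shunt returns arterial blood directly to the veins, so that venous return and cardiac output are raised and both atria are stretched. The right atrium receives this blood first, and the left atrium receives it after the lungs. Atrial myocytes answer stretch with natriuretic peptides and with genes of the fetal heart, while fibroblasts lay down matrix. Hamp encodes hepcidin, the peptide hormone that binds the iron exporter ferroportin and causes its degradation. The liver is the main source of hepcidin, where BMP6 acting with hemojuvelin, and inflammatory cytokines acting through STAT3, are known to raise its transcription.

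Hamp had the smallest interaction p of all genes, and its promoter is shown because both kinds of hepatic input are known to act near the gene's start. The RefSeq sequence (rat build GRCr8) of the 250 bases before the start of Hamp, chr1:95300272-95300521 on the minus strand, is given with the letters of 2 motifs in capitals: GGCGCC, the core of BMP response elements, at 129 to 124 bases before the start, and TTCNNNGAA, the STAT motif, at 117 to 109 bases before the start.
Hamp: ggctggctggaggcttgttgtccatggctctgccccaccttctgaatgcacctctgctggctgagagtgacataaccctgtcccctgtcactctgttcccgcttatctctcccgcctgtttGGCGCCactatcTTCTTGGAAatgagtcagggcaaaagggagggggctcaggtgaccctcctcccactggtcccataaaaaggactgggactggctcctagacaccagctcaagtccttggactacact
Both motifs read the same on either strand, and they did not overlap. Of 33469 rat promoters of the same length, 8.69% held GGCGCC, 7.67% held TTCNNNGAA and 0.379% held both. A match is a description of letters and not a measured binding site. Among the other genes described first below, the promoter of Acyp2 held the STAT motif at 1 place and Ccr6 at 2, Larp4b held GGCGCC at 2 places, and Zfp292 held neither. For Cxcr5 there was no promoter sequence to search.

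The arrays differed in ways that touch the results. The first principal component, 60.5% of the variance, separated left from right arrays. On the second component the array farthest from its group was left atrium shunt replicate 3, at -26.70 against 14.95 and 13.62 for replicates 1 and 2. Right atrium shunt replicates 2 and 3 carried more ventricular muscle transcripts than replicate 1: Irx4, a ventricular transcription factor, read 5.86 and 5.94 against 4.18. The atrial markers Nppa and Myl7 were high on all 12 arrays (Nppa 14.37 to 14.43, Myl7 14.06 to 14.27). The mean level of the 11 atrial cardiomyocyte markers was 10.39 to 10.41 on right shunt and 10.52 to 10.57 on right sham arrays. In the left atrium it was 10.52 to 10.62 on shunt and 10.59 to 10.73 on sham arrays. The tissue entry of the labels names atria and ventricles together, while the source entry names the atrium. The distribution of values also differed by group, since the upper quartile of the right atrium shunt arrays was 7.38 to 7.41 and that of the right atrium sham arrays 7.32 to 7.34. The beta-actin 3' minus 5' difference, a measure of RNA integrity, was 1.91 to 2.03 in the right atrium of shunt animals, 1.58 to 1.82 in that of sham animals, 1.31 in the left atrium of sham animals and 1.14 to 1.39 in the left atrium of shunt animals. The GAPDH 3' minus 5' difference was 0.35 to 0.38 on right shunt and 0.32 to 0.40 on right sham arrays, which overlapped. On left arrays it was 0.20 to 0.21 for sham and 0.18 to 0.28 for shunt. The part of these differences in the results was not tested.

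Few probe sets could be called for a shunt response that differed between the atria, with 3 pools per group. In the limma fit of all arrays, 8 of 31042 probe sets (0.0258%) passed an adjusted p of 0.05 (Benjamini-Hochberg) in the interaction, 7 of them (0.0226%) with a more positive response in the left atrium and 1 (0.00322%) with a more positive response in the right. At an unadjusted p under 0.05 the number was 4467 (14.4%), with 7.11% more positive in the left and 7.28% in the right. Taken as 1 probe set per gene, the one with the highest mean, 4 of 14217 genes (0.0281%) passed: Hamp, Cxcr5, Ccr6 and Acyp2. All 4 were more positive in the left, and 0 (0%) were more positive in the right, where 1213 (8.53%) had an unadjusted p under 0.05, against 850 (5.98%) in the other direction and 2063 (14.5%) in either. The response within each atrium gave more calls. In the right atrium 923 probe sets (2.97%) passed, of which 591 rose (1.9%) and 332 fell (1.07%) after the shunt. In the left atrium 233 (0.751%) passed, of which 88 rose (0.283%) and 145 fell (0.467%). After quantile normalization of the deposited values again, the right atrium calls were 352 higher and 312 lower. After subtraction of array medians the interaction calls were 3 with a more positive left response and 1 with a more positive right response.

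A gene called in only 1 atrium was not thereby shown to respond differently. By gene, 565 (3.97%) were called in the right atrium and 133 (0.935%) in the left. Of the 508 genes called in the right atrium and not in the left, 301 (59.3%) had an unadjusted interaction p under 0.05, and of the 76 called in the left and not in the right, 55 (72.4%) did. Of the 57 genes called in both, 12 (21.1%) did. The interaction uses the same arrays as these calls, so these shares describe the overlap and test nothing further. Of all calls, 3 right atrium genes and 1 left atrium gene passed the interaction test itself.

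Hamp was the one gene that passed the interaction through the left atrium. Its values were 10.09, 9.64 and 9.79 on the left atrium sham arrays and 11.77, 11.87 and 11.49 on the left atrium shunt arrays. On the right atrium sham arrays it read 12.40, 12.35 and 12.39, and on the right atrium shunt arrays 12.61, 12.64 and 12.42. All left shunt arrays lay above all left sham arrays, and all left arrays lay below all right arrays in both operations. The right shunt arrays also lay above the right sham arrays, at 12.42 to 12.64 against 12.35 to 12.40. Hamp rose in the left atrium by 1.87 on the log2 scale (3.65-fold, limma adjusted p = 4.14e-05), while the right atrium differed by 0.17 (adjusted p = 0.465), for an interaction of 1.69 ± 0.17 (SE, n = 3 pools per group, 95% confidence interval 1.33 to 2.06, adjusted p = 0.00753). The gap between the atria was -2.54 in sham and -0.85 in shunt animals, left minus right. In bulk tissue, more cells of a type and more RNA per cell cannot be told apart. Of 24 alternative settings, 22 kept Hamp past the threshold. It lost it without right atrium sham replicate 1 (adjusted p = 0.0526) and with right atrium shunt replicates 2 and 3 left out together (adjusted p = 0.3105), where the right atrium shunt group is 1 array assumed to vary like the other groups, and its interaction stayed between 1.59 and 1.83.

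No other gene of iron handling passed with Hamp. Of 13 measured genes of iron handling, Hamp was the only one past the threshold in the interaction. At an unadjusted p under 0.05 there was 1 with a positive and 2 with a negative interaction, where the same counts over all genes were 5.98% and 8.53%. The list's median interaction was -0.12 against -0.04 over all genes. It was -0.03 after quantile normalization again and -0.05 without right atrium shunt replicate 1 or left atrium sham replicate 2. Bmp6, the ligand that raises hepcidin in the liver, rose in the right atrium by 0.61 (adjusted p = 0.0261) and differed by 0.51 in the left (adjusted p = 0.0953), with an interaction of -0.10 ± 0.18 (adjusted p = 0.821). Hjv, its coreceptor hemojuvelin, read 11.66 to 11.80 on left sham and 11.44 to 11.58 on left shunt arrays, and its interaction was -0.12 ± 0.12 (adjusted p = 0.667). Slc40a1, which encodes ferroportin, had an interaction of -0.34 ± 0.16 (adjusted p = 0.346), and Ireb2, an iron sensor that binds messenger RNAs, -0.45 ± 0.18 (adjusted p = 0.284). Smad9, one of the receptor-activated SMADs of BMP signalling, read 6.21, 6.28 and 6.10 on left sham arrays and 7.21, 7.39 and 6.66 on left shunt arrays. It lay between 8.32 and 8.50 on all right arrays, so that its left values moved toward the right ones as those of Hamp did. Smad9 rose in the left atrium by 0.89 (adjusted p = 0.0154), but its interaction of 0.82 ± 0.20 did not pass (adjusted p = 0.152). Without left atrium shunt replicate 3 it was 1.03 and passed (adjusted p = 0.0224). A dimmer Smad9 probe set, with a mean of 3.82, had an interaction of 0.36 (adjusted p = 0.469).

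A pair of lymphocyte chemokine receptors passed through the right atrium. Cxcr5, the receptor that draws B cells and follicular helper T cells toward the chemokine CXCL13, read 6.93, 7.04 and 6.96 on right sham and 6.26, 6.35 and 6.33 on right shunt arrays. In the left atrium it read 6.58, 6.62 and 6.48 on sham and 6.96, 6.73 and 6.79 on shunt arrays. Shunt and sham arrays did not overlap in either atrium, and the order of the atria turned, with the left below the right in sham and above it in shunt animals. Cxcr5 fell in the right atrium by 0.66 (limma adjusted p = 0.00174), differed by 0.27 in the left (adjusted p = 0.143) and had an interaction of 0.93 ± 0.11 (SE, n = 3 pools per group, adjusted p = 0.0235). A second probe set of Cxcr5, with a mean of 3.28, had an interaction of 0.10, and the mean of both probe sets did not pass, at 0.51. Of 24 settings 15 kept Cxcr5 past the threshold; besides the mean of its probe sets it lost it under both fixed replicate blocks, without right atrium shunt replicate 2, right atrium sham replicate 1 or 2, or left atrium sham replicate 2 or 3, and without right atrium shunt replicates 2 and 3.

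Ccr6, the receptor for CCL20 on memory T cells, B cells and dendritic cells, was dim. It read 3.97, 4.04 and 4.12 on right sham, 3.57, 3.63 and 3.66 on right shunt, 3.98, 4.02 and 3.88 on left sham, and 4.24, 4.20 and 4.33 on left shunt arrays. The sham arrays of the atria overlapped, and all left shunt arrays lay above all right shunt arrays. Ccr6 fell in the right atrium by 0.43 (adjusted p = 0.0116), differed by 0.29 in the left (adjusted p = 0.0921) and had an interaction of 0.72 ± 0.10 (adjusted p = 0.0441). Only 5 of 23 settings kept it past the threshold: it lost it after quantile normalization again, after subtraction of array medians, with the trend and robust options, under both fixed replicate blocks, in both settings without pairs of shunt arrays, and in each leave-out of 1 array other than left atrium shunt replicate 3.

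The list of lymphocyte markers was read beside these receptors. Of 13 measured lymphocyte markers, 2 had a positive and 1 a negative interaction at an unadjusted p under 0.05, none passed the adjusted threshold, and the median interaction was 0.11. The 3 are 23.1% of the list, against 14.5% of all genes. Cxcl13, described below, and Gzmb were the positive ones, at 1.19 and 0.28. The T cell marker Cd3d was the negative one, at -0.26. The median was 0.04 after quantile normalization again, -0.009 without left atrium shunt replicate 2, and 0.04, 0.07 and 0.05 without right atrium sham replicate 2, right atrium sham replicate 3 and left atrium sham replicate 3. Their mean level was 5.07 to 5.12 on right sham, 5.03 to 5.08 on right shunt, 4.66 to 4.72 on left sham and 4.69 to 4.90 on left shunt arrays. The B cell marker Ms4a1 read 2.93 to 3.41 over all arrays, near the lowest value on any array, 2.25. Cxcl13, the ligand of Cxcr5, read 7.85, 7.53 and 7.36 on right sham, 7.54, 7.10 and 7.62 on right shunt, 3.81, 3.61 and 4.25 on left sham and 4.74, 5.19 and 4.82 on left shunt arrays. It was thus far lower in the left atrium, where the shunt arrays lay above the sham arrays. Cxcl13 rose in the left atrium by 1.03 (adjusted p = 0.0298), with an interaction of 1.19 ± 0.27 that did not pass (adjusted p = 0.141). Ciita, the transactivator of MHC class II genes, had an interaction of 0.69 ± 0.13 (adjusted p = 0.122) and fell in the right atrium by 0.37 (adjusted p = 0.0498).

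Acyp2, the muscle acylphosphatase, also passed through the right atrium. It read 9.27, 9.43 and 9.27 on right sham, 8.54, 8.57 and 8.76 on right shunt, 8.23, 8.26 and 8.24 on left sham and 8.28, 8.47 and 8.36 on left shunt arrays. The right shunt arrays lay below the right sham arrays and still above every left array. Acyp2 fell in the right atrium by 0.70 (limma adjusted p = 0.00176), differed by 0.13 in the left (adjusted p = 0.546) and had an interaction of 0.83 ± 0.12 (SE, n = 3 pools per group, adjusted p = 0.0441). It passed in 9 of 24 settings. Those that ended the call were subtraction of array medians, both fixed replicate blocks, both settings without pairs of shunt arrays, and the leave-outs of each array except right atrium shunt replicate 3 and left atrium shunt replicate 3.

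The other 4 probe sets past the threshold did not stand for a gene. A probe set of Larp4b, an RNA-binding protein of the La family, belonged to the class whose probes may also match other transcripts. It read 8.50, 8.69 and 8.42 on right sham, 7.78, 7.69 and 7.96 on right shunt, 6.88, 6.79 and 6.84 on left sham and 7.29, 7.11 and 7.01 on left shunt arrays. Its interaction was 1.03 ± 0.14 (adjusted p = 0.0388), while the brighter Larp4b probe set, with a mean of 10.29, had an interaction of -0.06. Similarly, the probe set of the zinc finger gene Zfp292 that passed was the dimmest of 6, with a mean of 4.97.
That Zfp292 probe set read 5.31, 5.37 and 5.19 on right sham, 4.85, 4.90 and 4.95 on right shunt, 4.65, 4.60 and 4.60 on left sham and 4.95, 5.13 and 5.12 on left shunt arrays. Its interaction was 0.84 ± 0.11 (adjusted p = 0.0299), with a fall of 0.39 in the right atrium (adjusted p = 0.0192) and a rise of 0.45 in the left (adjusted p = 0.0172). The other Zfp292 probe sets had interactions of -0.57 to 0.02, so that the probe sets of this gene disagreed.
Both remaining probe sets named no gene. The only one with a negative interaction, -1.15 ± 0.15 (adjusted p = 0.0383), read 7.66, 7.89 and 7.82 on right sham, 8.45, 8.74 and 8.72 on right shunt, 7.05, 7.37 and 7.35 on left sham and 6.87, 7.02 and 6.98 on left shunt arrays. Its right shunt arrays were the highest and its left shunt arrays the lowest of all. The last had an interaction of 0.68 ± 0.10 (adjusted p = 0.0441), with right atrium values of 7.55, 7.38 and 7.43 in sham and 6.81, 6.90 and 6.88 in shunt animals, and left atrium values of 7.18 to 7.33 over both operations. The Larp4b probe set passed in 9 of 22 settings, the Zfp292 probe set in 9 of 21 and the unnamed probe sets in 12 and 6 of 22. In no setting did the sign of any of the 8 change.

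**Figure D1:**
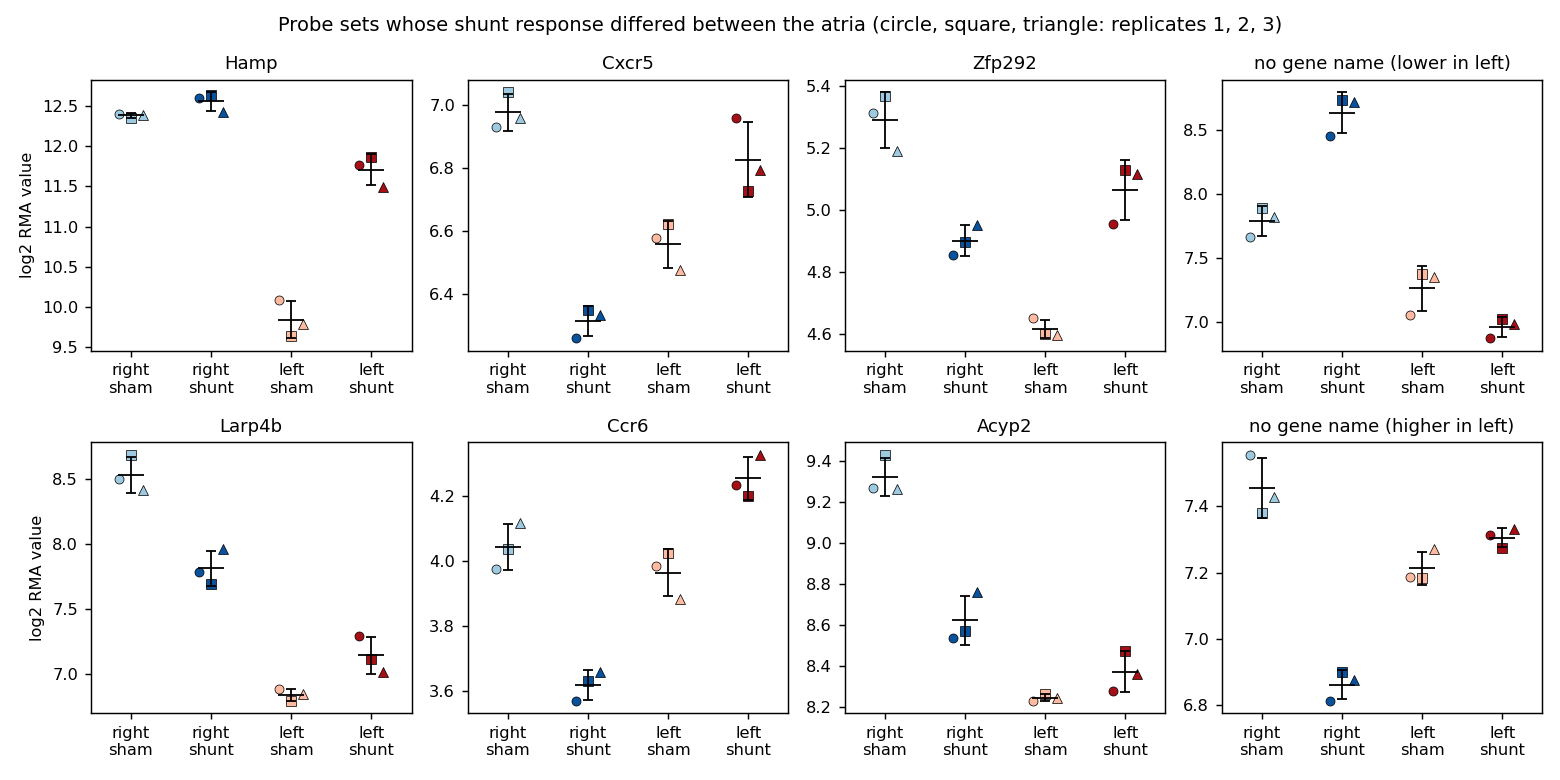
Log2 RMA values (vertical axis, scaled to each panel) of the 8 probe sets past the interaction threshold on each of the 12 arrays, with the mean (long bar) and SD (whiskers) of each group of 3. Hamp climbs in the left atrium from a mean of 9.84 to 11.71 and stays near 12.4 to 12.6 in the right, while in 6 of the panels the right atrium shunt mean lies below the right atrium sham mean.

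The 24 genes of smallest interaction p, the 4 above and 20 that did not pass (adjusted p 0.0507 to 0.122), shared a pattern that is a description, since the interaction p chose them. In 17 of them the right atrium mean was lower and the left atrium mean higher after the shunt, and in 4 the reverse held. The right atrium change was the larger in 18. In the tests within an atrium, 15 fell and 3 rose in the right, where 1.14% and 2.83% of all genes did, 2 rose and 2 fell in the left, where 0.373% and 0.563% did, and 2 passed in neither. The rule used the same contrasts, so nothing is read from these shares. The gap between the atria was smaller after the shunt in 15 of the 24 (62.5%), against 7043 of 14217 genes (49.5%). It was smaller for 4 of the 8 probe sets past the threshold (50%). The gap comes from the same group means as the interaction, so nothing is read from it either. Of the 24, 8 had a mean under 5.

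Those with a positive interaction came from unrelated families. Slc22a8, an organic anion transporter, read 4.91, 4.90 and 4.65 on right sham, 4.25, 4.19 and 4.11 on right shunt, 4.69, 4.49 and 4.34 on left sham and 4.89, 5.0 and 4.74 on left shunt arrays. Its shunt arrays lay below sham on the right and above sham on the left, with an interaction of 1.01 ± 0.15 (adjusted p = 0.0507). Slc25a45, a member of the mitochondrial carrier family, read 6.34, 6.19 and 6.21 on left sham and 6.99, 6.69 and 6.85 on left shunt arrays. It rose in the left atrium by 0.59 (adjusted p = 0.0276), with an interaction of 0.85 ± 0.15 (adjusted p = 0.0914). Arid1b, a subunit of the BAF chromatin remodelling complex, fell in the right atrium by 0.57 (adjusted p = 0.00254) and differed by 0.03 in the left, for an interaction of 0.59 ± 0.10 (adjusted p = 0.0846). That Arid1b probe set is of the same class as that of Larp4b, and the other 5 probe sets of Arid1b had interactions of -0.11 to 0.32. Gsk3a, a kinase of the glycogen synthase kinase pair, fell by 0.33 on the right (adjusted p = 0.0342) with an interaction of 0.58 ± 0.10 (adjusted p = 0.0914). Snph, which anchors mitochondria in axons, and Oprm1, the mu opioid receptor, fell by 0.37 and 0.43 on the right (adjusted p = 0.0451 and 0.00992). Their interactions were 0.67 ± 0.13 (adjusted p = 0.119) and 0.55 ± 0.10 (adjusted p = 0.0914). F12, coagulation factor XII, fell by 0.29 on the right (adjusted p = 0.0494) and had an interaction of 0.55 ± 0.10 (adjusted p = 0.108). The other genes of this direction were Afm, Mfrp, Arhgdig, Anks1b, Fam83h and Taok3, with interactions of 0.73, 0.59, 0.64, 0.70, 0.63 and 0.59. Further probe sets of Slc22a8, Oprm1, Anks1b and Taok3 and of Ciita, all dimmer, had interactions between -0.16 and 0.35, and the second of Snph had 0.15. Slc22a8 passed in 9 of 23 alternative settings, among them those without right atrium sham replicate 3 (adjusted p = 0.0435) and without left atrium shunt replicate 3 (adjusted p = 0.034), and Snph passed without left atrium shunt replicate 1 (adjusted p = 0.0468).

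Those with a negative interaction were 6. Trim72, which encodes the membrane repair protein MG53 of striated muscle, read 8.15, 8.11 and 7.98 on right sham, 8.88, 8.91 and 9.03 on right shunt, 8.63, 8.50 and 8.43 on left sham and 8.72, 8.55 and 8.60 on left shunt arrays. The right atrium thus went from below the left in sham animals to above it in shunt animals. Trim72 rose in the right atrium by 0.86 (adjusted p = 0.000444), with an interaction of -0.76 ± 0.12 (adjusted p = 0.0587). Iqgap2, a scaffold protein of the cytoskeleton, read 7.09, 7.41 and 7.46 on left sham and 6.05, 6.18 and 6.42 on left shunt arrays, against 5.62 to 6.02 over all right arrays. It fell in the left atrium by 1.10 (adjusted p = 0.00216) and differed by -0.02 in the right, for an interaction of -1.08 ± 0.18 (adjusted p = 0.0846). Scara5, a scavenger receptor that binds ferritin in the mouse, read 7.22, 7.10 and 7.22 on right sham, 7.46, 7.64 and 7.63 on right shunt, 8.05, 8.30 and 8.45 on left sham and 7.76, 8.01 and 7.83 on left shunt arrays. Shunt and sham did not overlap in either atrium, and the interaction was -0.79 ± 0.15 (adjusted p = 0.119). Mllt11 rose in the right atrium by 0.47 (adjusted p = 0.00826), Atrnl1 rose there by 0.38 (adjusted p = 0.0283), and Nap1l3, a nucleosome assembly protein, fell in the left by 0.48 (adjusted p = 0.0375). Their interactions were -0.62, -0.62 and -0.74. Trim72 passed in 6 of 24 alternative settings and Iqgap2 in 4 of 24, among them that without left atrium shunt replicate 3 (adjusted p = 0.047), and Nap1l3 passed without right atrium shunt replicate 1 (adjusted p = 0.0381).

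**Figure D2:**
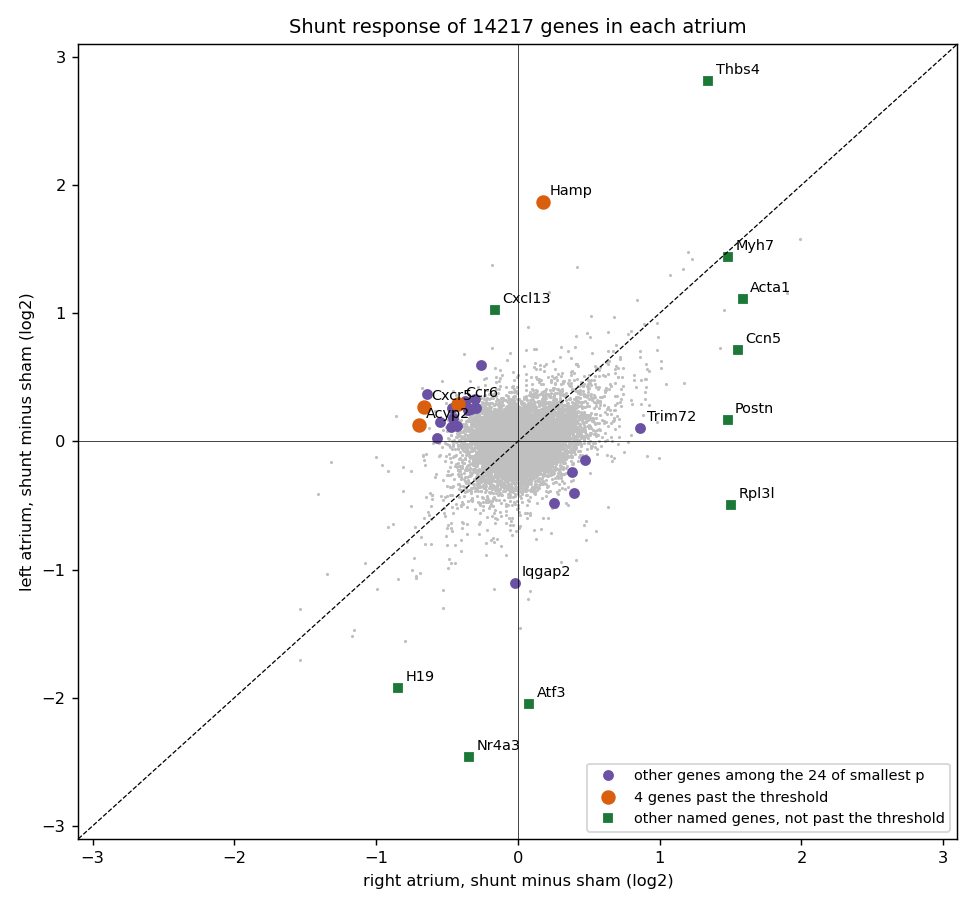
Shunt minus sham (log2) in the right atrium (horizontal axis) and in the left atrium (vertical axis) for 14217 genes, with the dashed line where both are equal and the interaction zero. The 4 genes past the threshold are orange, the 20 next by p purple, and other named genes, none of them past the interaction threshold, green squares. Hamp lies high above the line at 0.17 and 1.87, and most of the purple points lie in the upper left quadrant.

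The direction of the small interactions depended on how bright a probe set was. Among the 13488 probe sets with a mean under 5, 1364 had a positive and 409 a negative interaction at an unadjusted p under 0.05, with a median of 0.07. Among the 17554 at 5 or more, 843 were positive and 1851 negative, with a median of -0.07. After quantile normalization again the counts were 724 positive and 741 negative in the dim set and 1125 and 943 in the bright set. Small shifts of a list are therefore given below with their values after that normalization where the sign turned.

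The gene lists are described by their counts and medians, beside 5.98% of all genes with a positive and 8.53% with a negative interaction at an unadjusted p under 0.05, and a median of -0.04. Apart from Hamp, no member of any of the 36 lists passed the adjusted threshold in the interaction with all 12 arrays.

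Collagens had mostly negative interactions. Of 20 collagens, 17 had a negative interaction, as 57.7% of all genes did, 8 of them at an unadjusted p under 0.05 and 1 of the positive ones, and the median was -0.31. In the tests within an atrium 8 collagens rose in the right (2.83% of all genes did), and in the left 1 rose and 1 fell (0.373% and 0.563%). Col5a1, a chain of the fibril-nucleating collagen V, read 8.31, 8.24 and 8.25 on right sham, 8.74, 8.57 and 8.68 on right shunt, 8.80, 8.93 and 8.89 on left sham and 8.94, 8.74 and 8.72 on left shunt arrays. Only the right arrays were separated by the operation, and the atria overlapped on the shunt arrays, where left atrium shunt replicate 3 lay below right atrium shunt replicate 1. The interaction of Col5a1 was -0.47 ± 0.11 (limma adjusted p = 0.145). The collagen VI chains Col6a2 and Col6a3, which form microfibrils around cells, had interactions of -0.45 ± 0.13 (adjusted p = 0.183) and -0.48 ± 0.13 (adjusted p = 0.175). Without left atrium shunt replicate 3 the median was -0.20, and 7 collagens had a negative interaction at an unadjusted p under 0.05.

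Postn, the matricellular protein periostin of activated fibroblasts, read 7.28, 6.80 and 6.72 on right sham, 8.54, 8.42 and 8.28 on right shunt, 6.94, 6.45 and 6.73 on left sham and 7.39, 6.52 and 6.70 on left shunt arrays. All right shunt arrays lay above every other array, and the left groups overlapped. Postn rose in the right atrium by 1.48 (adjusted p = 0.00496) and differed by 0.16 in the left (adjusted p = 0.78), and its interaction of -1.31 ± 0.29 did not pass (adjusted p = 0.141). Ccn5, a matricellular protein of the CCN family, rose in both atria, by 1.55 in the right (adjusted p = 0.000193) and 0.71 in the left (adjusted p = 0.024), with an interaction of -0.84 ± 0.18 (adjusted p = 0.141). Thbs4, a thrombospondin, leaned the other way, at 5.69, 5.65 and 5.36 on right sham, 7.39, 6.69 and 6.66 on right shunt, 5.71, 5.30 and 5.17 on left sham and 9.54, 7.85 and 7.21 on left shunt arrays. The left shunt arrays were spread widely and overlapped the right shunt arrays. Thbs4 rose in the left atrium by 2.81 (adjusted p = 0.011) and differed by 1.34 in the right (adjusted p = 0.11), and its interaction was 1.47 ± 0.61 (adjusted p = 0.305). Of 28 genes of the wider matrix list, 2 had a positive and 2 a negative interaction at an unadjusted p under 0.05, 14.3% against 14.5% of all genes. Their median was -0.06, and 0.003 without left atrium shunt replicate 3.

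Elastic fibre genes had a median interaction of -0.20, with 4 of 16 negative at an unadjusted p under 0.05 and 2 of 16 without left atrium shunt replicate 3. The median was -0.10 without that array or without right atrium shunt replicate 1, -0.13 without right atrium sham replicate 1, -0.31 without left atrium shunt replicate 2 and -0.13 after quantile normalization again. Fbln2, the elastic fibre protein fibulin 2, read 7.86, 7.84 and 7.97 on right sham, 8.82, 8.76 and 8.50 on right shunt, 8.95, 8.92 and 8.99 on left sham and 9.29, 9.34 and 9.12 on left shunt arrays. Shunt lay above sham in each atrium, further on the right. It rose in the right by 0.80 (adjusted p = 0.00158) and differed by 0.29 in the left (adjusted p = 0.175), with an interaction of -0.51 ± 0.13 (adjusted p = 0.159). Fbn1, fibrillin 1, had an interaction of -0.47 ± 0.14 (adjusted p = 0.201). The TGF-beta and BMP genes had a median of -0.08, which turned to 0.02 after quantile normalization again and to 0.05 without left atrium shunt replicate 3. Tgfb2, a TGF-beta ligand, had an interaction of -0.32 ± 0.14 (adjusted p = 0.324), and Smad2, a mediator of TGF-beta signals, -0.41 ± 0.13 (adjusted p = 0.206).

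Endothelial and macrophage markers lay on the same side as the collagens. The 11 measured fibroblast markers had a median interaction of -0.01, with 5 positive and 6 negative. Without left atrium shunt replicate 3 the fibroblast median was 0.07. Of 11 endothelial markers 5 had a negative interaction at an unadjusted p under 0.05, with a median of -0.24, and their mean level was 8.12 to 8.20 on right sham, 8.34 to 8.46 on right shunt, 8.24 to 8.30 on left sham and 8.22 to 8.37 on left shunt arrays. Without left atrium shunt replicate 3 the median was -0.14. Sele, the adhesion molecule E-selectin of activated endothelium, read 3.69, 3.53 and 3.57 on right sham and 4.35, 4.21 and 4.07 on right shunt arrays, and 2.85 to 3.29 over all left arrays. It rose in the right atrium by 0.62 (adjusted p = 0.0148), and its interaction was -0.62 ± 0.16 (adjusted p = 0.158). Tie1, an endothelial receptor kinase, and Emcn, endomucin, had interactions of -0.35 ± 0.11 (adjusted p = 0.2) and -0.33 ± 0.10 (adjusted p = 0.202).

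Of 13 macrophage markers 2 had a negative and none a positive interaction at an unadjusted p under 0.05. That is 15.4% of the list, against 14.5% of all genes in either direction. The median interaction of the list was -0.26, and -0.09 without left atrium shunt replicate 3. In the right atrium 4 of the 13 rose, where 2.83% of all genes did. Their mean level was 6.78 to 6.87 on right sham, 7.22 to 7.28 on right shunt, 6.53 to 6.58 on left sham and 6.40 to 6.97 on left shunt arrays, the last range including left atrium shunt replicate 3. Cd163, the haemoglobin scavenger receptor, and Mrc1, the mannose receptor, mark resident macrophages. Their interactions were -0.62 ± 0.18 (adjusted p = 0.185) and -0.63 ± 0.20 (adjusted p = 0.211), and Mrc1 rose in the right atrium by 0.59 (adjusted p = 0.0427).

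The listed complement and coagulation genes had a median interaction of -0.26, with 6 of 23 negative at an unadjusted p under 0.05 and none of the listed genes positive. Coagulation factor F12, described above and not on this list, had a positive interaction of 0.55 (adjusted p = 0.108). The median was -0.15 without left atrium shunt replicate 3. Plaur, the urokinase receptor, read 4.42, 4.33 and 4.29 on right sham, 4.74, 4.80 and 4.79 on right shunt, 4.93, 4.65 and 4.73 on left sham and 4.75, 4.69 and 4.51 on left shunt arrays. The operation separated only the right arrays. It rose in the right atrium by 0.43 (adjusted p = 0.0248), with an interaction of -0.55 ± 0.13 (adjusted p = 0.141). A dimmer Plaur probe set, with a mean of 3.14, had an interaction of 0.34 (adjusted p = 0.285). Fgg, the fibrinogen gamma chain, fell in both atria, by 0.53 in the right (adjusted p = 0.0138) and 1.16 in the left (adjusted p = 0.000242), and its interaction was -0.63 ± 0.13 (adjusted p = 0.141). F3, tissue factor, had an interaction of -0.54 ± 0.15 (adjusted p = 0.183).

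Among the immediate early genes, which are transcribed within minutes of a stimulus, 24 of 29 had a negative interaction, 6 of them and 2 of the positive ones at an unadjusted p under 0.05, with a median of -0.27. Nr4a3, an orphan nuclear receptor, read 7.07, 6.82 and 6.97 on right sham, 6.65, 6.55 and 6.64 on right shunt, 8.35, 6.98 and 6.80 on left sham and 5.27, 5.05 and 4.42 on left shunt arrays. The left shunt arrays were far below every other array, and left atrium sham replicate 1 was the highest. Nr4a3 fell in the left atrium by 2.46 (adjusted p = 0.00433) and differed by -0.34 in the right (adjusted p = 0.606), with an interaction of -2.12 ± 0.45 (adjusted p = 0.141). Other probe sets of Nr4a3, both dimmer, had interactions of -0.84 and 0.10.
Atf3, a stress-induced transcription factor, read 3.83 to 4.08 over all right arrays, 7.29, 5.69 and 4.66 on left sham and 3.96, 3.81 and 3.73 on left shunt arrays. Its left sham arrays alone were raised and were spread over more than 2 log2 units. The interaction was -2.13 ± 0.62 (adjusted p = 0.188). Egr2, a zinc finger factor, was highest on the same array, left atrium sham replicate 1, at 6.79 against 5.76 and 5.83, and had an interaction of -1.12 ± 0.33 (adjusted p = 0.19). A dimmer Egr2 probe set, with a mean of 3.93, had an interaction of 0.08 (adjusted p = 0.821). The related receptor Nr4a1 fell in the left atrium by 1.56 (adjusted p = 0.0237) and differed by -0.80 in the right (adjusted p = 0.133), with an interaction of -0.76 ± 0.39 (adjusted p = 0.386). Without left atrium sham replicate 1 the median of the list was -0.20 and 5 members were negative at an unadjusted p under 0.05.

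None of the 14 fetal and stress genes passed the interaction test. Nppa, atrial natriuretic peptide, lay at 14.37 to 14.43 on all arrays, the top of the range of values, with an interaction of 0.03 (adjusted p = 0.877). Nppb, the B-type natriuretic peptide, rose in both atria, by 0.42 in the right (adjusted p = 0.019) and 0.60 in the left (adjusted p = 0.00486). Its interaction was 0.18 ± 0.11, with a 95% interval of -0.06 to 0.43. Acta1, skeletal actin, rose by 1.59 in the right (adjusted p = 0.000341) and 1.11 in the left (adjusted p = 0.00415), with an interaction of -0.48 ± 0.20 (adjusted p = 0.308). Myh7, the slow myosin heavy chain of ventricle and fetal heart, had an interaction of -0.05 ± 0.32 with a 95% interval of -0.74 to 0.64, and of 0.48 without right atrium shunt replicates 2 and 3. H19, a fetal noncoding RNA that is not on this list, fell in both atria, by 0.84 in the right (adjusted p = 0.0206) and 1.93 in the left (adjusted p = 0.000244). The values of H19 were 9.60 to 9.82 on left sham and 7.32, 8.16 and 7.81 on left shunt arrays, and the interaction was -1.08 ± 0.23 (adjusted p = 0.141).

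Ventricular markers had a median interaction of -0.25, which turned to 0.18 without right atrium shunt replicates 2 and 3. Myl2, the ventricular myosin light chain, read 11.00, 10.93 and 10.90 on right sham, 11.45, 12.83 and 12.82 on right shunt, 5.45, 5.02 and 5.30 on left sham and 5.82, 6.42 and 5.71 on left shunt arrays. It was more than 4 log2 units lower in the left atrium in each operation, and 2 of the right shunt pools stood above the third. Its interaction of -0.69 ± 0.43 (adjusted p = 0.474) was 0.23 without those pools, and that of Irx4 went from -1.12 to 0.02. A second, dimmer probe set of Myl2, with a mean of 4.95, went the other way, with a fall of 0.55 in the right atrium (adjusted p = 0.042) and an interaction of 0.69 (adjusted p = 0.166). For Irx4 a second probe set, with a mean of 3.78, differed by 0.03 in the right atrium and had an interaction of -0.18 (adjusted p = 0.709). Rpl3l, the ribosomal protein paralog of striated muscle, followed the same pools, at 6.66, 8.32 and 8.19 on right shunt arrays, 6.59, 6.15 and 5.92 on right sham, and 4.86 to 5.60 over the left arrays. Its interaction was -2.0 ± 0.47 (adjusted p = 0.144). That of Rpl3l was -0.93 without right atrium shunt replicates 2 and 3, and without right atrium shunt replicate 1 it passed, at -2.53 (adjusted p = 0.00402), as did that of Irx4 at -1.70 (adjusted p = 0.00402). The part of ventricular tissue in the right atrium shunt pools in these values was not tested.

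Ion channel genes moved in both directions. Of 24 potassium channel genes 3 had a positive and 4 a negative interaction at an unadjusted p under 0.05, and the median, -0.03, was 0.02 after quantile normalization again. Kcnip2, the accessory subunit of the transient outward current, read 10.25, 10.15 and 10.31 on right sham, 10.64, 10.77 and 10.57 on right shunt, 8.45, 7.39 and 7.94 on left sham and 9.16, 9.70 and 9.01 on left shunt arrays. Shunt lay above sham in each atrium and the left stayed below the right. Kcnip2 rose in the left atrium by 1.36 (adjusted p = 0.0153), with an interaction of 0.94 ± 0.31 (adjusted p = 0.228). Kcnd2, a pore subunit of the same current, read 7.19, 7.32 and 7.47 on left sham and 6.71, 6.64 and 6.54 on left shunt arrays, against 7.16 to 7.58 over the right arrays. It fell in the left atrium by 0.70 (adjusted p = 0.0163), with an interaction of -0.69 ± 0.16 (adjusted p = 0.145). Kcnj12, an inward rectifier, fell in the left by 0.95 (adjusted p = 0.00377) and differed by -0.47 in the right (adjusted p = 0.0535).

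The sodium, calcium and pacemaker channel genes had 3 positive and 2 negative interactions at an unadjusted p under 0.05 of 15, with a median of -0.01 that turned to 0.08 after quantile normalization again. Scn4b, a sodium channel beta subunit, read 7.27, 7.34 and 7.37 on left sham and 5.93, 5.95 and 6.65 on left shunt arrays, against 7.14 to 7.90 over the right arrays. It fell in the left atrium by 1.15 (adjusted p = 0.0229), with an interaction of -0.98 ± 0.28 (adjusted p = 0.188). Without left atrium shunt replicate 3 and right atrium shunt replicate 1 that of Scn4b was -1.46 and passed (adjusted p = 0.000548). Hcn2, a pacemaker channel, read 6.96, 7.15 and 7.16 on right sham, 6.63, 6.94 and 6.78 on right shunt, 6.98, 6.86 and 7.05 on left sham and 7.25, 7.31 and 7.12 on left shunt arrays. The operations pointed opposite ways in the atria, with an interaction of 0.57 ± 0.13 (adjusted p = 0.145). Cacna2d1, a calcium channel subunit, had an interaction of -0.41 ± 0.11 (adjusted p = 0.178). Among 19 calcium handling genes, Trdn, the triadin of the calcium release complex, was the only one at an unadjusted p under 0.05, at 0.48 ± 0.11 (adjusted p = 0.141). Other probe sets of Trdn, with means of 9.68, 9.20 and 6.05, had interactions of -0.002, 0.19 and -0.14.

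The share of metabolic genes at an unadjusted interaction p under 0.05 differed by list. It was 18.2% for fatty acid genes, 14.3% for glycolysis and glucose use and 0% for oxidative phosphorylation, against 14.5% of all genes. Of 33 fatty acid genes, which serve uptake and oxidation, 6 had a negative and none a positive interaction at an unadjusted p under 0.05, with a median of -0.13; the count was 11 without left atrium shunt replicate 3, 3 after quantile normalization again and 2 without right atrium shunt replicates 2 and 3. Pdk4, the kinase that restrains glucose oxidation, fell in both atria, by 0.49 in the right (adjusted p = 0.0123) and 0.99 in the left (adjusted p = 0.000244), with an interaction of -0.49 ± 0.12 (adjusted p = 0.149). Slc25a20, the carnitine carrier, had an interaction of -0.34 ± 0.11 (adjusted p = 0.207). Of 38 genes of oxidative phosphorylation none had an unadjusted interaction p under 0.05, and the median was -0.04, that of all genes. Hspa1a, the inducible HSP70, fell in the left atrium by 0.60 (adjusted p = 0.00625) and differed by -0.07 in the right, with an interaction of -0.53 ± 0.12 (adjusted p = 0.141). Cdkn1a, the cell cycle inhibitor p21, rose in the right by 0.39 (adjusted p = 0.0245) and had an interaction of -0.43 ± 0.11 (adjusted p = 0.166). The 28 cell cycle genes had a median of -0.23, which was -0.09 without left atrium shunt replicate 3 and -0.50 without right atrium shunt replicates 2 and 3. Of these 28, 3 were negative at an unadjusted p under 0.05, against 12 in the latter setting.

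Neuronal and blood markers had the most positive medians. Of 15 neuronal and glial markers 5 had a positive and none a negative interaction at an unadjusted p under 0.05, and the median was 0.40. It was 0.24 without left atrium shunt replicate 3. Npy, the sympathetic cotransmitter neuropeptide Y, read 8.05, 7.64 and 8.01 on right sham, 7.62, 6.99 and 7.06 on right shunt, 7.48, 7.60 and 7.55 on left sham and 8.05, 7.90 and 7.92 on left shunt arrays. It lay lower after the shunt on the right and higher on the left, without overlap. Npy fell in the right atrium by 0.68 (adjusted p = 0.0347), differed by 0.42 in the left (adjusted p = 0.244) and had an interaction of 1.09 ± 0.21 (adjusted p = 0.125), which was 1.29 and passed without right atrium shunt replicate 1 (adjusted p = 0.0246). Th, the enzyme that starts catecholamine synthesis, had an interaction of 0.40 ± 0.14 (adjusted p = 0.235). Uchl1, a neuronal ubiquitin hydrolase also listed with the stress genes, rose in the left atrium by 0.72 (adjusted p = 0.0403) with an interaction of 0.61 ± 0.20 (adjusted p = 0.229). The mean level of the neuronal list was 4.61 to 4.68 on right sham, 4.54 to 4.68 on right shunt, 4.50 to 4.61 on left sham and 4.72 to 5.14 on left shunt arrays.

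Erythrocyte markers had a median interaction of 0.47 over 5 genes, 3 with a positive and 2 with a negative interaction. Of the positive ones, 2 had an unadjusted p under 0.05. The globin gene Hba-a3 read 10.55, 10.82 and 10.57 on right sham, 10.57, 10.26 and 10.55 on right shunt, 10.21, 10.38 and 10.32 on left sham and 11.55, 11.23 and 10.31 on left shunt arrays. Left atrium shunt replicates 1 and 2 alone were raised. Its interaction was 0.91 ± 0.33 (adjusted p = 0.253), and 1.27 without left atrium shunt replicate 3, where it passed (adjusted p = 0.0291). Ucp1, the uncoupling protein of brown fat, stood apart on the third pool, at 7.56 on left atrium shunt replicate 3 and 3.87 to 4.66 on the other arrays, for an interaction of 1.56 ± 0.85 (adjusted p = 0.419). The adipocyte list as a whole had a median of 0.01.

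**Figure D3:**
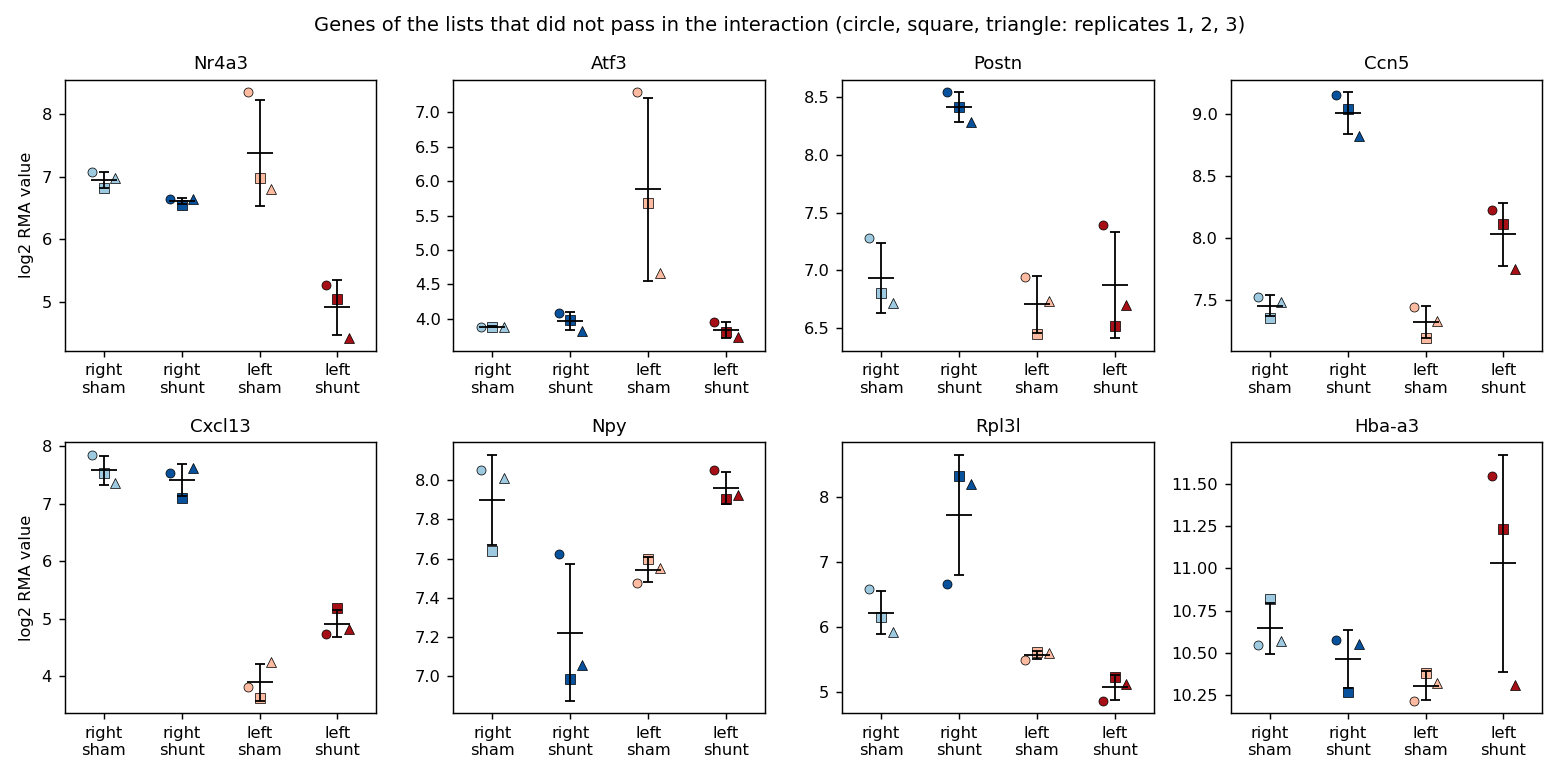
Log2 RMA values (vertical axis, scaled to each panel) on each of the 12 arrays of 8 genes from the lists that did not pass the interaction threshold, with the mean (long bar) and SD (whiskers) of each group of 3. Postn and Ccn5 are highest on right atrium shunt arrays, Nr4a3 is lowest on left atrium shunt arrays, Atf3 is raised on left atrium sham arrays, and Rpl3l is raised on right atrium shunt replicates 2 and 3.

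**Figure D4:**
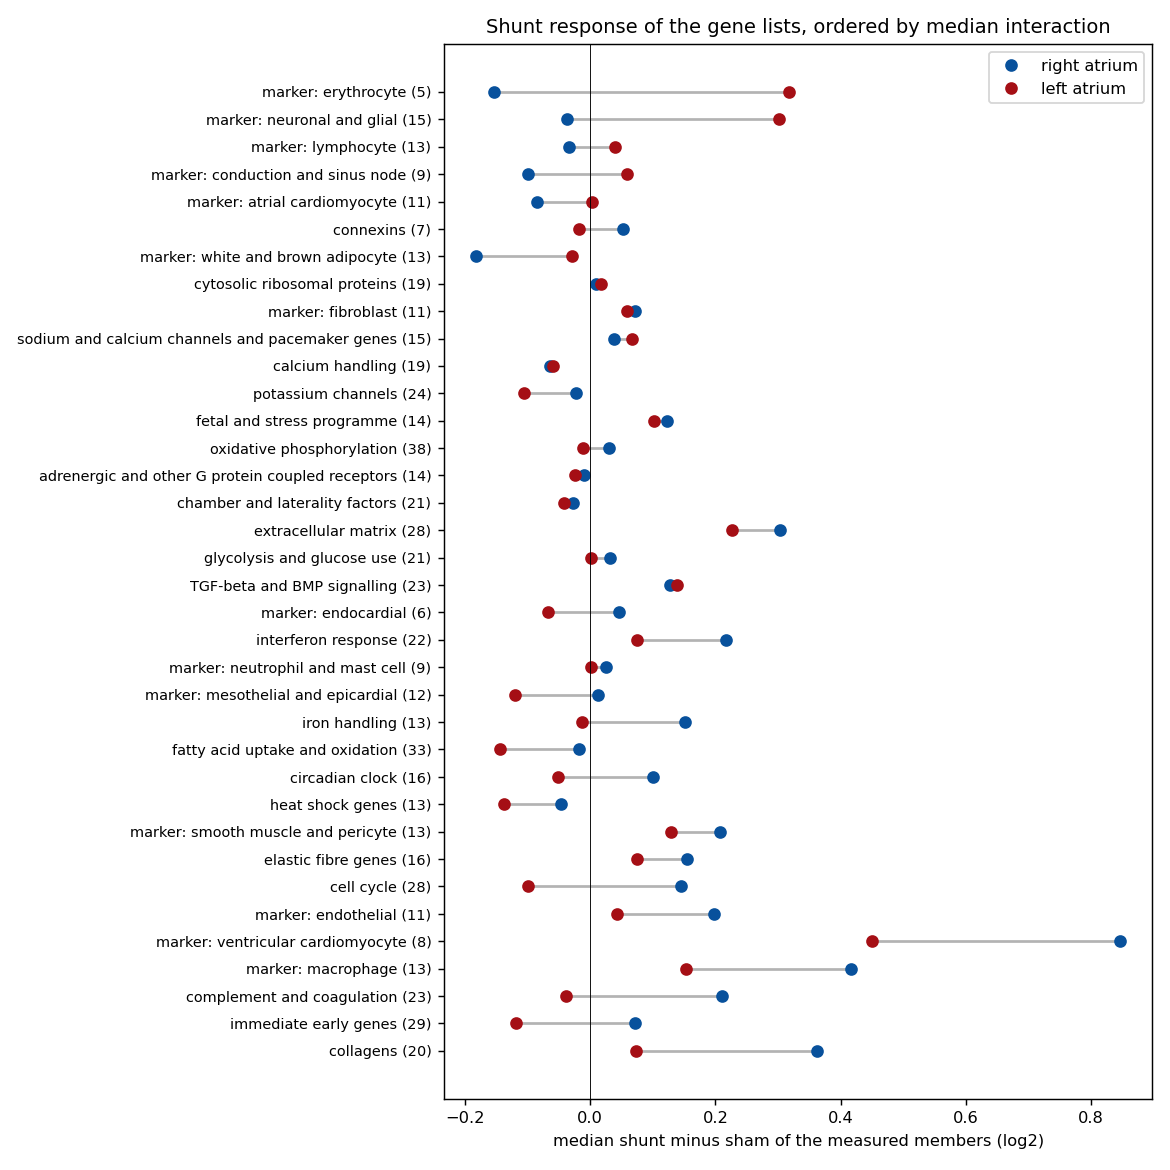
Median shunt minus sham (log2, horizontal axis) in the right atrium (blue) and left atrium (red) of the measured members of each of 36 gene lists, the number of members in brackets, ordered by median interaction. Collagens lie at the bottom with 0.36 in the right and 0.07 in the left atrium, and neuronal and glial markers near the top with -0.04 and 0.30.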

How the data were processed

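The table deposited by the authors holds a log2 value for each probe set and array. Per the submitters' processing notes these are RMA values, a method that corrects background, quantile-normalizes and summarises probes. No version of RMA is given. Array medians lay between 5.44 and 5.47. Values were used as deposited. The 57 control probe sets of 31099 were left out, and 31042 were tested. The array annotation named 1 gene for 20826 of these, several for 436 and none for 9780; 20758 of the first kind matched a RefSeq gene ID. A gene was read from its probe set of highest mean.

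With limma 3.58.1 in R 4.3.3, all 12 arrays entered a fit of 4 group means (lmFit, contrasts.fit, eBayes). Tests were two-sided, with Benjamini-Hochberg adjustment over all tested probe sets and a threshold of 0.05; an adjusted p is from this fit unless another setting is named beside it. The procedure was tested on simulated data. The genes, the contrast and the 36 gene lists were chosen with earlier results of these data known. Named were the genes past the interaction threshold, those of smallest p up to 24, up to 3 members of smallest interaction p per list, and a short fixed set, of which Bmp10 is not analysed here. Bmp6, Hjv and Ms4a1 were named after their values were seen, for their roles, and the probe sets that do not stand for a gene are given because they passed. Alternatives covered dim probe sets, normalization, moderation, array weights, replicate blocks, probe sets per gene and left-out arrays.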

Additional observations from a re-analysis of the deposited data

Results flagged for a closer look

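For 8 probe sets the shunt response itself differed between the atria in limma's interaction test. The left minus right difference was 1.69 for Hamp, 0.93 for Cxcr5, 0.84 for a probe set of Zfp292, 1.03 for a probe set of Larp4b, 0.72 for Ccr6 and 0.83 for Acyp2 on the log2 scale. For the unnamed probe sets it was -1.15 and 0.68. The adjusted p of the 8 lay between 0.00753 and 0.0441, with 3 pools in each of 4 groups.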

How the results depend on the processing

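The 8 interaction calls became 4 after subtraction of array medians, 15 with the trend and robust options, 15 with array weights, 0 without right atrium shunt replicates 2 and 3 (3010 at an unadjusted p under 0.05) and 17 without left atrium shunt replicate 3 and right atrium shunt replicate 1. Leaving out 1 array gave 0 to 21: 0 without right atrium sham replicate 1 (4076 at an unadjusted p under 0.05), 1 without right atrium shunt replicate 2 or left atrium sham replicate 2 or 3, 2 without right atrium sham replicate 2, 3 without left atrium shunt replicate 2, 4 without left atrium sham replicate 1 and 21 without left atrium shunt replicate 3. With the replicate number as a block there were 3 calls, with the block within operation 3, and with that block as a random effect 13. Deviations of same-numbered left and right arrays of an operation correlated at 0.079 to 0.148, 3 of 6 over 0.1. Those of other numbers correlated at -0.089 to -0.012 in all 12 pairs. Deviations cancel within a group, so the negative values follow in part from the positive ones and are no separate hint. Every array correlated best with its own number within its operation, a hint from the data of pairing that the labels do not give. The block was kept as an alternative because not every pair exceeded 0.1. The right atrium's 923 calls became 2352 with array weights, 19 without right atrium shunt replicates 2 and 3, 1415 with only its 6 arrays, and 148 to 1631 when 1 array was left out. The left atrium's 233 became 395 without dim probe sets, 485 with the trend and robust options, 370 with array weights, 86 without right atrium shunt replicates 2 and 3, 536 without left atrium shunt replicate 3 and right atrium shunt replicate 1, 13 with only its 6 arrays, and 77 to 554 when 1 array was left out. Interactions that changed sign belonged to genes that did not pass. With the mean of all probe sets Hk1 was 0.0075, Kcnj3 0.088 and Pi16 0.051. Without right atrium shunt replicates 2 and 3 Cox5a was 0.010, Gjb6 0.023, Irx4 0.023, Myl2 0.23 and Myh7 0.48. Without left atrium shunt replicate 3 and right atrium shunt replicate 1 Pi16 was 0.054 and Vwf 0.17; with 1 array left out they lay at -0.55 to -0.053 and -0.27 to 0.071; Vwf was also 0.017 with array weights and 0.071 without left atrium shunt replicate 3. Myh7, at -0.31 to 0.20 with 1 array left out, was 0.00092 after quantile normalization again, 0.20 without right atrium shunt replicate 2, 0.047 without right atrium sham replicate 3, 0.14 without left atrium shunt replicate 3 and 0.052 without left atrium sham replicate 1. Of the other interactions of named genes, 3129 kept sign and side of the threshold, 43 gained and 44 lost the call. Only the 4 genes past the threshold could lose it. Hamp kept it in 22 of 24 settings, Cxcr5 in 15 of 24, Acyp2 in 9 of 24 and Ccr6 in 5 of 23. The cause of these shifts was not tested. Signal over background was not tested, and 13488 probe sets had a mean under 5.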
